A study of Mus musculus with 24 samples.

Results

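The retinoic acid course of Mll2-KO mouse embryonic stem cells was read as the change in polyA RNA between day 0 and day 4. It rests on 6 of the 24 libraries of the study, 3 of Mll2-KO stem cells and 3 of Mll2-KO differentiated cells, taken by the genotype and day in their labels. The 3 WT libraries of each day (6 in all) entered as a reference course, used to find genes that failed to be induced or silenced. Day 0 cells grew on gelatin in 15% serum with leukemia inhibitory factor (LIF), and day 4 cells had spent 4 days in 10% serum with 1 µM retinoic acid and without LIF. Mll2-KO cells of both days came from a Cre-inducible line that had received 800 nM 4-hydroxytamoxifen (4-OHT) for 48 h, and the timing of the drug relative to retinoic acid is not stated. WT cells of both days are labelled as untreated, so 4-OHT and the loss of Mll2 cannot be told apart in any difference from WT. Mll1-KO cells (edited from the Cre-inducible line and labelled as untreated) and double-KO cells (4-OHT, as Mll2-KO) gave further courses whose fold changes chose no genes. Their libraries did enter the gene filter and the shared estimate of spread behind every adjusted p. The labels do not say whether the 3 libraries of a group were separate cultures or clones, so p-values measure the spread between these samples, which may be technical.

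MLL2, the product of Kmt2b, is a histone methyltransferase of the COMPASS family, the enzymes that methylate lysine 4 of histone H3 at promoters and enhancers. It binds unmethylated CpG-rich DNA through a CXXC domain and is known in embryonic stem cells for methylating promoters of developmental genes that are held silent before differentiation. Retinoic acid binds heterodimers of retinoic acid and retinoid X receptors, which sit on direct repeats of a short motif, and it drives stem cells out of pluripotency while it turns on Hox genes and its own degrading enzymes.

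Levels below are normalized counts (reads of a library divided by its size factor), as mean ± SD over the 3 libraries of a group (n = 3) or library by library, and positions are on mm10. A course is the log2 fold change of day 4 against day 0 on log2(normalized count + 1), which understates changes of low genes. A gene was called, and is said to rise or fall, at a Benjamini-Hochberg adjusted p below 0.05 in limma over 15114 genes. A difference of courses is the Mll2-KO course minus the WT course.

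Library totals were 19 to 22.8 M reads in Mll2-KO day 0, 15.4 to 17.1 in Mll2-KO day 4, 21.8 to 22.5 in WT day 0 and 13.4 to 15.6 in WT day 4. Mll2-KO day 0 replicate 3 stood apart, with a chi-square of 11.5 per degree of freedom against each of the other replicates, which differed from each other by 3.54. Without it the counts of called genes stayed within 1.5 times, and results that moved more are marked. The whole-gene level of Kmt2b was 2380, 2442 and 2798 in the libraries labelled Mll2-KO day 0 and 2359, 2717 and 2431 at day 4, beside 2853 ± 48.2 and 2269 ± 57.4 in WT. Counts over the full gene cannot show missing exons, so they are no check of the deletion. Magohb, an exon junction complex gene known to depend on MLL2 in stem cells (chromosome 6, 131284388 to 131293244 on mm10), stood at 44.8, 46 and 32 in Mll2-KO day 0 and at 1.96, 5.1 and 3.27 in Mll2-KO day 4. In WT it was 175, 199 and 200 and then 101, 103 and 75.4, above every Mll2-KO library of the same day.

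Most genes that changed at least 4-fold from day 0 to day 4 in WT changed the same way in Mll2-KO. The days differ in retinoic acid, LIF, serum and time in culture, which cannot be told apart in a course. In Mll2-KO at day 4, 6336 of 15114 genes rose and 5980 fell (41.9% and 39.6% of the genes tested), and the change was 4-fold or more for 1756 of the former and 1089 of the latter. In WT, 6499 rose and 6023 fell (43% and 39.9%). Of the 1834 genes that rose at least 4-fold in WT, 1719 (93.7%) also went up at least 2-fold in Mll2-KO, with median courses of 3.14 in WT and 2.99 in Mll2-KO. Of the 1106 genes silenced at least 4-fold in WT, 1039 (93.9%) also went down at least 2-fold in Mll2-KO (medians -2.91 and -2.59). Across the 15114 genes the courses correlated with a Pearson r of 0.911 and a Spearman rho of 0.894, as a description over genes, which are not independent replicates.

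The genes with the 10 largest rises of the Mll2-KO course started at low levels. Col3a1, a fibrillar collagen chain (chromosome 1, 45311538 to 45349706 on mm10), held 0, 2.42 and 1.52 normalized counts at day 0 and 6556, 5887 and 6802 at day 4 (log2 11.61 ± 0.43 SE, adjusted p = 1.55e-19). Hapln1, a link protein of hyaluronan matrix, had no read in the 3 day 0 libraries and 1371, 1280 and 1388 at day 4, at least 546-fold higher against a floor of 3 reads per library. Ccdc80, a secreted matrix protein, went from 0.51 ± 0.88 to 950 ± 70.7, and Gpr50, an orphan receptor related to the melatonin receptors, from 1.67 ± 0.95 to 2010 ± 147. None of these day 4 libraries came near a day 0 library. Svep1, a large adhesion protein, and Fat4, a giant cadherin, had no read at day 0 and 505 ± 4.92 and 466 ± 24.5 at day 4 (at least 205-fold and 189-fold). Igfbp5, which binds insulin-like growth factors, went from 1.37 ± 0.51 to 876 ± 60.1, and Ttr, the thyroxine carrier, from no read to 353 ± 16.3 (at least 143-fold). Cyp26a1 and Cyp26b1, described below, complete the 10. Of these 10 genes Hapln1 alone had a course called different from WT (1.99 higher, adjusted p = 4.58e-04), where it reached 562 ± 98.9.

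The genes with the 10 largest falls ended at low levels. Kirrel2 and Nphs1, adhesion proteins of the nephrin family, fell from 575 ± 73.3 to 1.72 ± 0.62 and from 672, 642 and 744 to 5.88, 4.08 and 3.27 by library. Nkx6-3, a homeobox gene, fell from 377 ± 65.3 to 1.42 ± 1.68, Igsf21, an immunoglobulin superfamily gene, from 347 ± 37.6 to 2.33 ± 2.06, and Calca, the calcitonin gene, from 554 ± 100 to 3.11 ± 1.17 (difference of courses -1.44, adjusted p = 0.0463). Nupr1, a stress-induced nuclear protein, fell from 1706, 1843 and 2382 to 15.7, 21.4 and 10.9, against 772 ± 7.96 and 16.4 ± 2.41 in WT. Its day 0 libraries lay above those of WT and its day 4 libraries overlapped them (difference of courses -1.41, adjusted p = 4.97e-05). Ubap1l fell from 1593 ± 526 to 5.21 ± 2.1 against 442 ± 20.6 to 12.6 ± 4.84, above WT at day 0 and below it at day 4 (difference -2.92, adjusted p = 2.03e-04). Atp6v0c-ps2, Eif3j1 and Amd1 also led the falls, but reads can be shared with near-identical copies, and they are left as uncertain.

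Retinoic acid receptors, enzymes and early targets changed over the Mll2-KO course: of 30 measured list members 25 rose and 5 fell, against 23 and 5 in WT, with medians of 2.75 and 3.17 (0.03 and 0.04 over all genes tested). Of all genes 41.9% rose and 39.6% fell in Mll2-KO, and 43% and 39.9% in WT. Cyp26a1, which degrades retinoic acid (chromosome 19, 37697798 to 37701536 on mm10), held 19.7, 20.1 and 19.1 in the Mll2-KO day 0 libraries and 12550, 13310 and 12610 at day 4 (log2 9.28 ± 0.17 SE). In WT it went from 25.3, 18.2 and 21.7 to 9619, 10070 and 10230. The day 4 Mll2-KO libraries all lay above those of WT, but the courses were not called different (0.49, adjusted p = 0.105). Rarb, the receptor gene that retinoic acid induces directly (chromosome 14, 16430839 to 16819156 on mm10), went from 8.95, 5.64 and 15.2 to 2836, 2803 and 2873 in Mll2-KO and from 6.13, 5.32 and 4.66 to 2673, 2550 and 2628 in WT (difference -0.58, adjusted p = 0.53).

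The promoters of Cyp26a1 and Rarb are printed to show the element that the receptors read. They are RefSeq promoters (GRCm38.p6, 250 bases before to 50 after the first listed start), 5′ to 3′ on the strand of the gene, with the half-sites of a direct repeat in capitals.
Cyp26a1, chr19:37697558-37697857, plus strand: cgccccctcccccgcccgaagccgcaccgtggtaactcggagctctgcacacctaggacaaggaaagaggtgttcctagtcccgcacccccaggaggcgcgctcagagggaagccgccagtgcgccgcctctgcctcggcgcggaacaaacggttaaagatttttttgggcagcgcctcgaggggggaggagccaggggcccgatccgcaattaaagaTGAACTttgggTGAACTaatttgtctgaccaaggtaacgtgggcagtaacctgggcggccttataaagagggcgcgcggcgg
Rarb, chr14:16575427-16575726, minus strand: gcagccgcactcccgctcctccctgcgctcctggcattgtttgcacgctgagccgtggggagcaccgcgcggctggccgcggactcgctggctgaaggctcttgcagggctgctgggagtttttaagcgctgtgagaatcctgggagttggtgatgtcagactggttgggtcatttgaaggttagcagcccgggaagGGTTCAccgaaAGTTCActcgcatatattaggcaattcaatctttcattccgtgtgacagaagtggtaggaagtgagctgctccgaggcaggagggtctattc
The repeat searched on both strands was a pair of half-sites spaced by 5 bases, where a half-site is the consensus AGGTCA, the variant AGTTCA, the variant GGGTCA or the variant GGTTCA, which 5 of 11873 promoters of tested genes (0.0421%) hold. In Cyp26a1 it reads on the opposite strand and begins 32 bases before the start, and in Rarb it reads on the strand of the gene and begins 53 bases before it. The Rarb start listed lies 243680 bases inside the gene span given above. A match of letters is a description and no measured binding.

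Other retinoid genes rose in both genotypes. Cyp26b1, a second degrading enzyme, went from 6.05 ± 6.07 to 2155 ± 7.86 (course 8.61 against 8.04 in WT). Dhrs3, which reduces retinal, went from 37.7 ± 17.5 to 1593 ± 42.7 (5.46 against 6.03), and Stra6, the receptor for retinol binding protein, from 23.9 ± 10 to 764 ± 40.4 (5.01 against 4.24). The carrier gene Crabp2 had a course of 3.65 against 3.33. Meis1 and Meis2, homeobox cofactors of Hox proteins, rose by 6.63 and 6.99 against 6.24 and 7.29, and Nr2f1 and Nr2f2, orphan nuclear receptors, by 7.66 and 7.83 against 7.74 and 8.79. No difference of courses was called in these 8 genes. Rarg, the receptor gene of undifferentiated cells, had a course of -2.68 in Mll2-KO and -2.34 in WT.

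Aldh1a2, the enzyme that makes retinoic acid from retinal in the embryo (chromosome 9, 71215789 to 71296243 on mm10), was the list member that rose at least 4-fold in WT and less than 2-fold in Mll2-KO. It held 18.8, 24.2 and 48.8 in Mll2-KO day 0 and 46.1, 47.9 and 41.5 in Mll2-KO day 4, so that the days overlapped. In WT it went from 43.6, 60 and 48.9 to 380, 393 and 470, with no overlap. The course was 0.66 in Mll2-KO (adjusted p = 0.00965, and 0.121 without Mll2-KO day 0 replicate 1) and 3.01 in WT, a difference of -2.35 ± 0.32 (SE, adjusted p = 2.10e-06). It rose in Mll1-KO from 69 ± 14.4 to 664 ± 22.3 and stood at 52.7 ± 1.4 and 37 ± 5.46 in the double-KO.

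Stra8, a retinoic acid target that starts meiosis, rose from 399 ± 32.6 to 938 ± 61.1 in Mll2-KO and from 327 ± 19.7 to 1805 ± 119 in WT (difference -1.23, adjusted p = 1.70e-10). Tgm2, a transglutaminase, rose from 558 ± 108 to 1416 ± 40.3 against 560 ± 19.5 to 2780 ± 76.7 (difference -0.95, adjusted p = 3.78e-06). In all, 8 list members had a lower and 2 a higher course in Mll2-KO (4 higher without WT day 0 replicate 2), where 2569 (17%) and 2922 (19.3%) of all genes did. That balance over all genes depends on the scaling, since column totals gave 3436 lower and 2063 higher and edgeR 2953 and 2664. The lower ones included the receptors Rarg and Rxra, the retinol dehydrogenase Rdh10 and the corepressor Nrip1, which differed by -0.46 to -0.24. The calls of Rarg and Rdh10 were lost without WT day 0 replicate 3 (adjusted p = 0.0659 and 0.0703) among others, and those of Rxra and Nrip1 without Mll2-KO day 0 replicate 2 (0.11 and 0.0991) among others. The 2 higher ones were Cdx1, a caudal homeobox gene (1.08), and Crabp1, a retinoic acid carrier (0.72, lost without Mll2-KO day 0 replicate 3 at 0.0601).

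**Figure D1:**
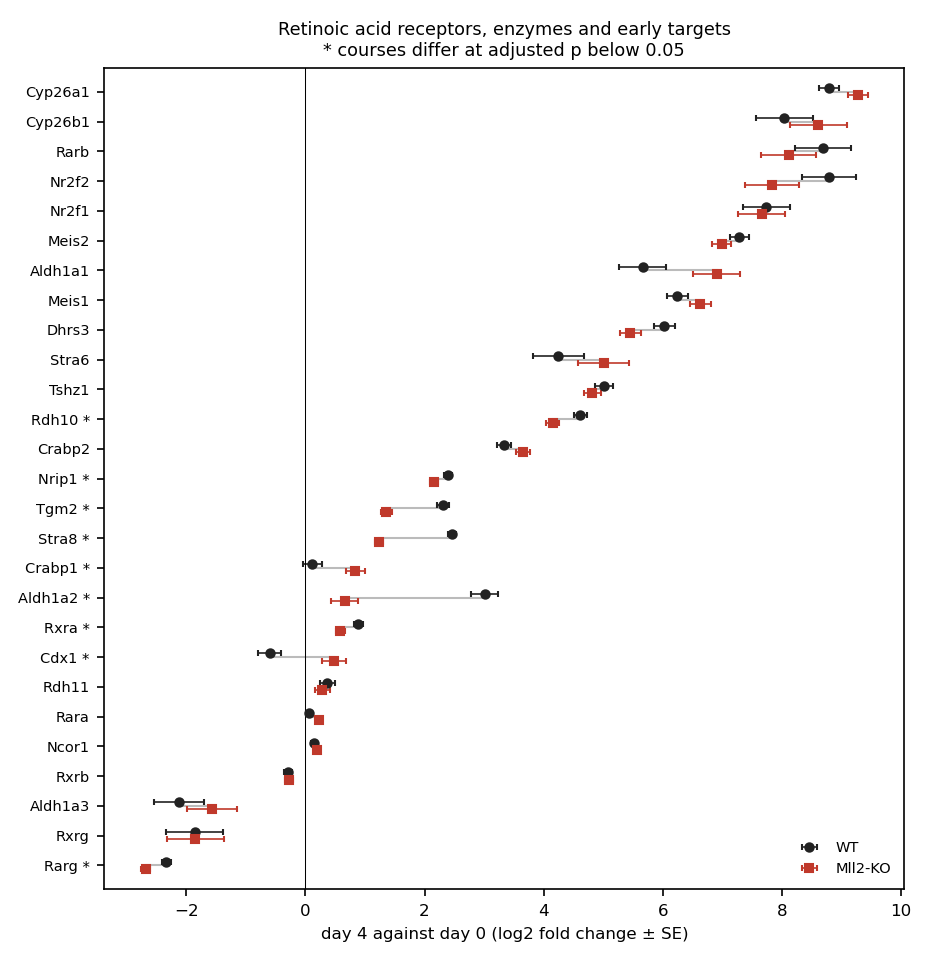
Courses of 27 genes of retinoic acid signalling, as log2 fold change of day 4 against day 0 with SE (horizontal axis), in WT (circles) and Mll2-KO (squares), 3 libraries per group. Cyp26a1 leads in Mll2-KO at 9.28, and the widest gap between the courses is at Aldh1a2 (3.01 in WT, 0.66 in Mll2-KO).

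Hox genes, which set position along the body axis, rose in Mll2-KO, and a part of them less than in WT. Of 34 measured, 31 rose in Mll2-KO and 34 in WT (41.9% and 43% of all genes), with medians of 3.90 and 5.33. The difference of courses was lower for 15 of the 34 (10 without Mll2-KO day 0 replicate 3) and higher for 0 in limma, as for 0 at an unadjusted p below 0.05 and 0 by edgeR or DESeq2. Over all genes 17% had a lower and 19.3% a higher course. By cluster, 7 of 10 Hoxa genes, 2 of 10 Hoxb genes, 2 of 7 Hoxc genes and 4 of 7 Hoxd genes had the lower course. The Hoxb count lies near the share of all genes, and the Hoxc count rests on 2 genes. The median courses were 3.51 in Mll2-KO and 5.16 in WT for Hoxa, and 7.31 and 7.68 for Hoxb, without a test between the clusters. At day 0, 12 of the 34 were called higher in Mll2-KO than in WT and 1 lower, and at day 4, 10 were lower. Over all genes 22.6% were higher and 23.8% lower at day 0, and 20.3% higher and 16.2% lower at day 4 (1694 higher and 3345 lower at day 4 with column totals, 2578 and 2949 by edgeR, against 3067 and 2447 here). The day 4 count of Hox genes was 5 with quantile scaling, 21 by edgeR and 22 by DESeq2. Their summed level was 492 to 599 per Mll2-KO day 0 library against 353 to 397 in WT, and 10950 to 11180 per day 4 library against 13220 to 13440, so neither day overlapped.

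Hoxa9 (chromosome 6, 52223100 to 52231089 on mm10) went from 8.05, 4.03 and 0.76 in Mll2-KO day 0 to 47, 56 and 39.3 at day 4, and in WT from 2.3, 0.76 and 0.78 to 135, 123 and 105 (difference -2.33, adjusted p = 0.0116). The day 0 libraries overlapped between genotypes, and the day 4 libraries did not. Hoxa6, of the same cluster, went from 1.79, 2.42 and 5.34 to 39.2, 33.6 and 40.4 against 1.53, 0.76 and 0.78 to 75.2, 77.2 and 90.7 in WT (difference -2.06, adjusted p = 0.00187). Hoxc8 held 0.9, 0.81 and 0.76 in Mll2-KO day 0, 1 read per library, and 540, 484 and 503 at day 4, a ratio of 622 with a counting interval of 212 to 3020 (95%, counting error only), against no read and 804, 714 and 668 in WT. Hoxb2, a hindbrain Hox gene, went from 5.37, 0 and 1.52 to 864, 867 and 884 in Mll2-KO and from 6.89, 3.04 and 3.11 to 1052, 1042 and 957 in WT, with no called difference (0.79, adjusted p = 0.385).

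**Figure D2:**
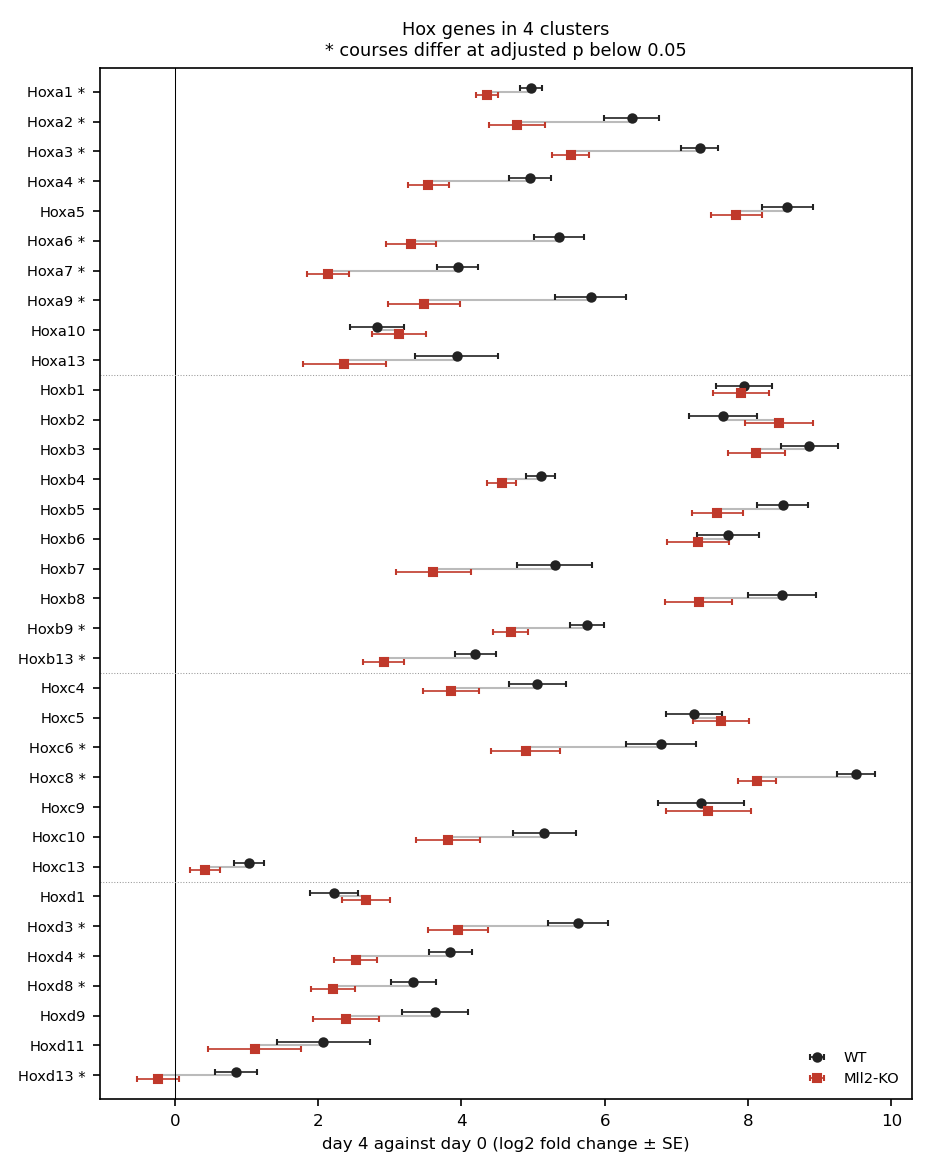
Courses of 34 Hox genes in the Hoxa, Hoxb, Hoxc and Hoxd clusters, as log2 fold change of day 4 against day 0 with SE, in WT (circles) and Mll2-KO (squares), 3 libraries per group. Hoxa9 and Hoxa6 show the gap between the courses (-2.33 and -2.06), and Hoxb2 has the Mll2-KO course above that of WT without a called difference.

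Pluripotency genes fell in Mll2-KO as the cells differentiated. All 22 naive pluripotency genes fell in both genotypes (medians -3.67 and -3.89), and their summed level went from 133800 to 136400 per Mll2-KO day 0 library to 14880 to 16190 per day 4 library, so these markers followed the labels of stem and differentiated cells. The WT sums were 111300 to 113700 and 10540 to 12400. Over all genes 39.6% fell in Mll2-KO and 39.9% in WT. Nr0b1, a nuclear receptor of the naive state, fell from 4462 ± 593 to 59 ± 10.4, and Fgf4, a growth factor of stem cells, from 5509 ± 701 to 92.3 ± 9.01. Dppa4, a chromatin protein of stem cells, fell less than in WT, from 1872, 1784 and 1804 to 633, 668 and 627 against 2075, 2054 and 1975 to 291, 338 and 311 (difference 1.20, adjusted p = 7.11e-12). Tbx3, a T-box factor of naive cells, fell more, from a higher start (6400 ± 997 to 2913 ± 148 against 2429 ± 132 to 2032 ± 5.51, difference -0.87). Of the 22, 8 had a higher course in Mll2-KO (5 without WT day 4 replicate 1) and 2 a lower one, where 19.3% and 17% of all genes did.

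Of 17 core and general pluripotency genes, 14 fell and 1 rose in Mll2-KO (39.6% and 41.9% of all genes), whereas 17 fell in WT (39.9%). The riser was Lefty2, a secreted inhibitor of Nodal signalling, at 69.8, 58.9 and 45.8 in Mll2-KO day 0 and 136, 183 and 154 at day 4, against 277, 235 and 296 and 60, 101 and 76.6 in WT (courses 1.44 and -1.78). The genotypes did not overlap on either day and swapped their order. L1td1, an RNA-binding protein gene of stem cells that derives from a LINE1 element, fell from 4091, 4049 and 3488 to 2247, 2364 and 2274 in Mll2-KO and from 7706, 7507 and 6856 to 1286, 1498 and 1391 in WT (difference 1.65, adjusted p = 2.73e-14). Tdgf1, a Nodal co-receptor, fell from 19220 ± 254 to 176 ± 30.3 against 33360 ± 694 to 140 ± 30.9. Of 15 formative and primed pluripotency genes 6 rose and 5 fell in Mll2-KO against 5 and 9 in WT. The Mll2-KO counts lie near the shares of all genes, of which 41.9% rose and 39.6% fell (43% and 39.9% in WT). In Mll2-KO 8 courses were higher and 1 lower (2 without Mll2-KO day 0 replicate 1), where 19.3% and 17% of all genes were. The median difference was 0.79, against 0.02 over all genes.

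Genes that left the WT course were picked by 4 rules on the courses. A gene counted as not induced when it rose at least 4-fold in WT, its Mll2-KO course was under 2-fold, and the difference was called. The other rules mirror this: not silenced, induced in Mll2-KO but not WT, and silenced in Mll2-KO but not WT. They held 90, 51, 66 and 84 genes (0.595%, 0.337%, 0.437% and 0.556% of the genes tested), with Stc1, Aoc3 and Slc35f3 in both rules of higher courses and Itga4 in both of lower courses. The values that chose these genes are given as a description, with no test of the choice. Just inside and just outside the limit of each rule stood Kcnj2 and D430019H16Rik (Mll2-KO courses 0.993 and 1), En2 and Usp50 (-0.919 and -1), Dscam and Anxa2 (WT courses 0.953 and 1.03), and Tmco4 and Fez1 (-0.987 and -1.01). In bulk RNA fewer cells of a type and less RNA per cell cannot be told apart, for these genes and all others here.

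**Figure D3:**
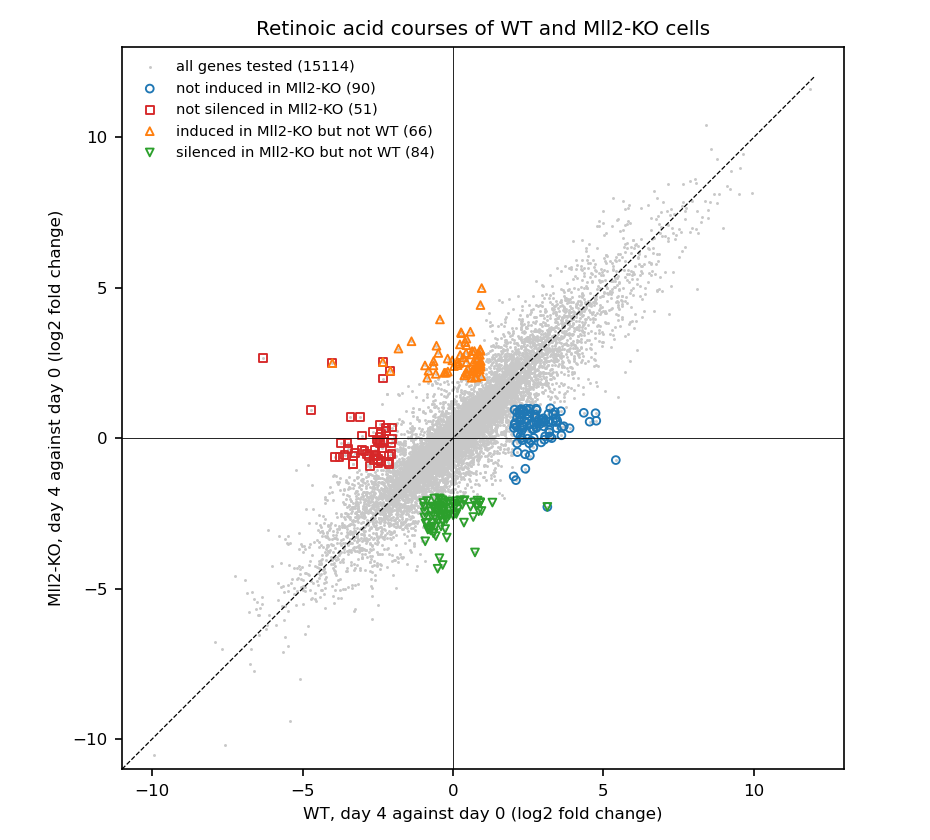
Course of each of 15114 genes in WT (horizontal axis) and Mll2-KO (vertical axis), as log2 fold change of day 4 against day 0, with a line where both are equal. The marked genes of the 4 rules (90, 51, 66 and 84) lie away from that line because the rules select them, while most genes follow it (Pearson r 0.911).

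Genes that were not induced ended mostly low at day 4. Of the 90, 62 were at least 2-fold lower than WT at day 4 (as were 8.05% of all genes tested) and 29 at least 2-fold higher at day 0 (2.65%), and for 47 the day 4 level alone was 2-fold apart. The rule used all 4 groups, so these counts only describe where the genes differed. Their median course was 0.49 in Mll2-KO and 2.68 in WT. Lama2, the laminin chain of muscle basement membrane (chromosome 10, 26980036 to 27619758 on mm10), held 0.9, 3.23 and 1.52 in Mll2-KO day 0 and 1.96, 6.12 and 4.37 in Mll2-KO day 4. In WT it went from 1.53, 4.56 and 1.55 to 89.4, 89.2 and 82.5. The Mll2-KO days overlapped and the WT days were far apart (courses 0.83, adjusted p = 0.093, and 4.74, difference -3.91 ± 0.64 SE). Itga4, the alpha 4 integrin subunit (chromosome 2, 79255426 to 79333123 on mm10), went down instead of up. It held 8.95, 8.87 and 6.1 in Mll2-KO day 0 and 0.98, 2.04 and 0 at day 4, 3 reads in all, a ratio of day 0 to day 4 of 7.71 (95% counting interval 2.39 to 39.5, counting error only). In WT it rose from 3.83, 5.32 and 11.7 to 78.2, 71.2 and 44.8, above every Mll2-KO library.

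The promoters of Itga4 and Lama2, which led this rule among named genes averaging 50 or more in a group, are printed from RefSeq (GRCm38.p6, 250 bases before to 50 after the first listed start, 5′ to 3′ on the strand of the gene). Each CG is in capitals, since the CXXC domain of MLL2 binds this pair of letters.
Itga4, chr2:79255176-79255475, plus strand: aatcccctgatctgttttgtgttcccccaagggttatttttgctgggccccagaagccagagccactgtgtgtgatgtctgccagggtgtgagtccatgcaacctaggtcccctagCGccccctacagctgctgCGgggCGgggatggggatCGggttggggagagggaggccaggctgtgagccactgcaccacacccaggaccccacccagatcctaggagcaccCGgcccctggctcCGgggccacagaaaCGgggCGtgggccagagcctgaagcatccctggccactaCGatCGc
Lama2, chr10:27616893-27617192, minus strand: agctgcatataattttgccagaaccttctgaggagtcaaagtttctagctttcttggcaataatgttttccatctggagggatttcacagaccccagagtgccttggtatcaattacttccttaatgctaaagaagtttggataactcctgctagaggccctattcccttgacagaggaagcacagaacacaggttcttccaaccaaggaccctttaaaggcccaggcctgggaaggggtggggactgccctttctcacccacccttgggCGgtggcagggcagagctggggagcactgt
The Itga4 window holds 10 CG pairs and the Lama2 window 1. The Lama2 start listed by RefSeq lies 2816 bases inside the gene span given above, so its count is for that start alone. The 11873 matched promoters hold a median of 20, and 1.81% of them hold at most 1. Promoters were matched for 67 of the 90 genes (74.4%), too few to compare CG content between gene sets.

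Other genes of the rule were low at day 4 as well. Hmgcll1, a lyase of ketone body synthesis (chromosome 9, 76014855 to 76136350 on mm10), fell from 41.2, 42.7 and 35.1 in Mll2-KO day 0 to 19.6, 21.4 and 16.4 at day 4, while WT rose from 45.2, 58.5 and 58.2 to 316, 291 and 260. Cldn34c1, a claudin gene, held 1.57 ± 1.36 and 1.37 ± 0.58 against 5.36 ± 1.5 rising to 57.4 ± 5.84. Sspn, a membrane protein of the dystrophin complex, held 9.62 ± 1.83 and 9.28 ± 1.94 against 7.2 ± 6.64 rising to 53.8 ± 9.04. In these 3 genes, and in the next 3, the Mll2-KO day 4 libraries all lay below those of WT. Zfp660, a zinc finger gene, held 15.5 ± 6.94 and 17 ± 4.45 against 10.5 ± 3.02 rising to 104 ± 23.1. Nox4, an oxidase that makes hydrogen peroxide, was already lower at day 0 (3.93 ± 3.18 against 20.2 ± 1.07, adjusted p = 5.52e-04) and stood at 4.3 ± 5.62 at day 4 against 122 ± 17.5. Nrn1, a neurite growth gene, held 2.42 ± 0.63 and 6.21 ± 4.67 against 7.44 ± 3.73 rising to 82.2 ± 4.36, a difference called here (adjusted p = 0.0168) and lost without Mll2-KO day 4 replicate 1 (0.0639).

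Gata2 and Grin2c were high before differentiation. Gata2, a transcription factor of blood and trophoblast (chromosome 6, 88193891 to 88207032 on mm10), held 130, 138 and 246 in Mll2-KO day 0 and 211, 203 and 181 at day 4, against 18.4, 42.5 and 23.3 rising to 246, 246 and 260 in WT. At day 0 it was 2.59 higher than WT on the log2 scale (adjusted p = 6.45e-10), and at day 4 the difference was -0.34 (adjusted p = 0.261). Grin2c, a glutamate receptor subunit, held 62.3 ± 15.2 and 90.4 ± 12.3 against 18.2 ± 9 rising to 158 ± 12.9. The double-KO day 0 level of both genes lay between those of WT and Mll2-KO, at 51 ± 10.6 for Gata2 and 31.7 ± 9.58 for Grin2c. Further genes under the rule were Hand1, a transcription factor of heart and trophoblast (30.6 ± 2.73 to 52 ± 11.3 against 17.4 ± 3.76 to 105 ± 14.5), and Ctsh, a lysosomal cathepsin (43.5 ± 10.4 to 61.9 ± 7.5 against 69.5 ± 4.38 to 485 ± 53.8). Chosen after their values were seen, the cardiac genes Myocd (courses 0.55 in Mll2-KO and 4.54 in WT) and Hcn4 (-0.02 and 2.48) and the chromatin remodeller Smarca1 (0.44 and 2.29) were members too.

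**Figure D4:**
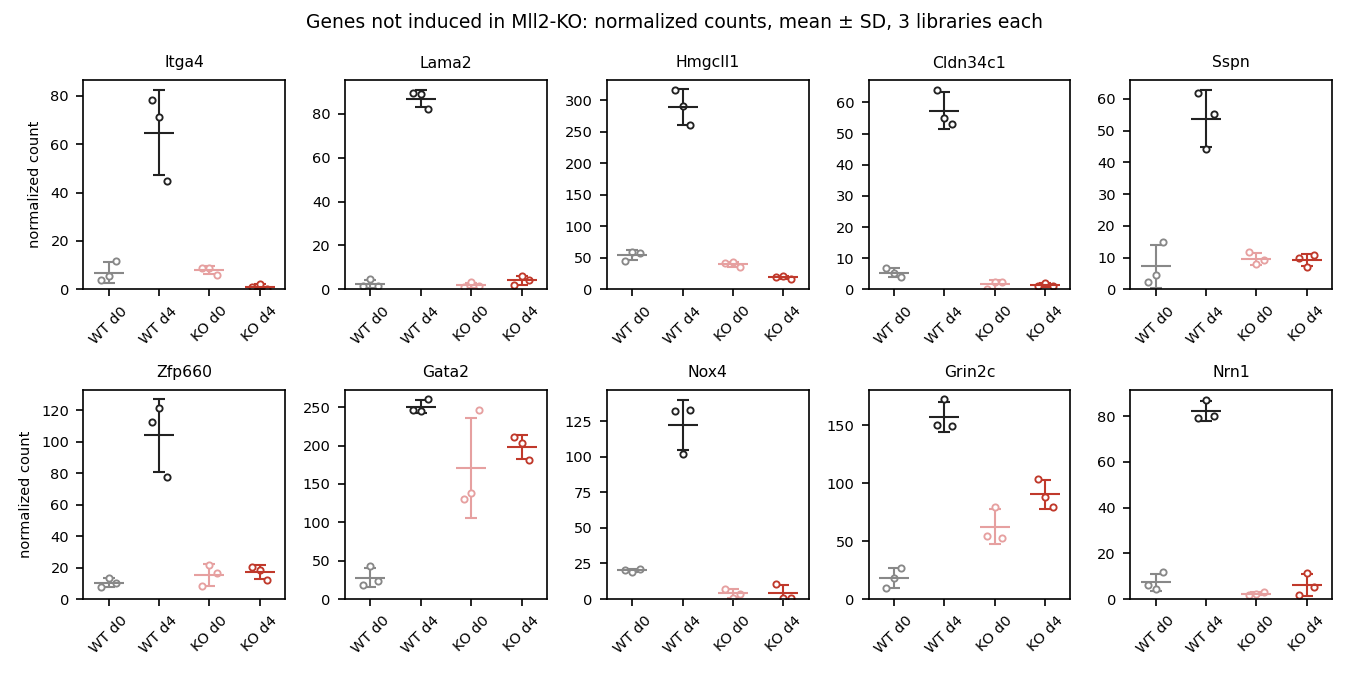
Normalized counts of the 10 leading genes not induced in Mll2-KO (one panel each, vertical axis from 0), with a point per library and the mean ± SD (n = 3), for WT and Mll2-KO at day 0 and day 4. In Gata2 and Grin2c the Mll2-KO day 0 libraries stand above those of WT, and in all 10 genes the Mll2-KO day 4 libraries lie below those of WT. The rule chose these genes from the same libraries, so the gaps only describe the choice. The day 4 difference of Gata2 was not called.

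Genes that were not silenced mostly started low. Of the 51, 38 were at least 2-fold below WT at day 0 (as were 6.95% of all genes tested) and 19 at least 2-fold above WT at day 4 (2.41%), with median courses of -0.33 in Mll2-KO and -2.55 in WT. A2m, a plasma protease inhibitor (chromosome 6, 121635376 to 121679227 on mm10), held 7.16, 11.3 and 13 in Mll2-KO day 0 and 21.6, 20.4 and 19.6 at day 4, while WT fell from 323, 513 and 487 to 16.3, 19.1 and 11.8. Egln3, an oxygen-sensing prolyl hydroxylase (chromosome 12, 54178981 to 54203860 on mm10), held 194, 165 and 163 and then 160, 165 and 141, while WT fell from 1336, 1567 and 1493 to 98.6, 108 and 124. In both genes the day 0 libraries of Mll2-KO lay far below those of WT. The day 0 level was also below WT in Mll1-KO (26.8 ± 8.97 for A2m and 403 ± 61.7 for Egln3) and in the double-KO (16.6 ± 6.04 and 270 ± 31.9). Stc1, a secreted glycoprotein, had no read at day 0 and 5.88, 7.13 and 2.18 at day 4 (at least 2.06-fold higher), against 56.5 ± 13.6 falling to 3.7 ± 3.24. Aoc3, an amine oxidase, rose from 2.85 ± 2.33 to 18.5 ± 1.64 against 68.5 ± 20.3 falling to 12.4 ± 1.52. Its day 0 level was 16.8 ± 2.62 in Mll1-KO and 9.34 ± 2.22 in the double-KO. In Mll1-KO the courses of A2m and Aoc3 were -0.87 and -0.14, and that of Egln3 was -2.72. In A2m, Egln3, Stc1 and Aoc3 the day 4 means of Mll2-KO and WT were less than 2-fold apart.

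Otx2, a homeobox gene of primed pluripotency and forebrain, held 9.85, 14.5 and 6.1 in Mll2-KO day 0 and 13.7, 18.3 and 9.82 at day 4, against 61.3, 56.2 and 83.1 falling to 8.13, 8.02 and 22.4. Eomes, a transcription factor of mesendoderm and trophoblast, fell from 98 ± 21.3 to 58.2 ± 2.23 against 295 ± 3.13 to 46.6 ± 5.26 (difference 1.93, adjusted p = 4.59e-06). Both were lower than WT at day 0 and not called different at day 4. Atp6v0a4, a proton pump subunit, held 22.9 ± 13 and 34.4 ± 3.48 against 164 ± 23.4 falling to 18.3 ± 1.5. Ascl2, an imprinted trophoblast factor, went from 56.7 ± 6.91 to 38.1 ± 3.74 against 145 ± 23.8 falling to 11.2 ± 3.32, and Naip5, an inflammasome sensor, from 18.1 ± 6.27 to 13.3 ± 1.35 against 58.3 ± 8.46 falling to 4.53 ± 2.16. These 3 were called lower than WT at day 0 and higher at day 4.

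Iqcg and Prr19 had no called change in the Mll2-KO course. Iqcg, a gene of sperm flagella (chromosome 16, 33012683 to 33056218 on mm10), held 312, 295 and 262 in Mll2-KO day 0 and 290, 286 and 310 in Mll2-KO day 4. In WT it fell from 356, 352 and 309 to 65, 69.2 and 51.8. At day 0 the genotypes differed by -0.23 (adjusted p = 0.0997), and at day 4 Mll2-KO was 2.24 higher (adjusted p = 2.26e-14), with a difference of courses of 2.47 ± 0.16 (SE). The double-KO held 387 ± 16.3 and 440 ± 46.6, and Mll1-KO fell from 400 ± 26.9 to 68 ± 8.37. Prr19, a meiotic recombination gene, held 51.9, 39.5 and 30.5 and then 35.3, 49.9 and 49.1 in Mll2-KO, against 71.2, 51.6 and 60.6 falling to 10.2, 8.02 and 15.3. The Mll2-KO days overlapped in both genes.

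Genes induced in Mll2-KO but not WT also had a low start in most cases. Of the 66, 48 were at least 2-fold below WT at day 0 (as were 6.95% of all genes tested). At day 4, 21 were at least 2-fold above WT (2.41%), and the median courses were 2.53 in Mll2-KO and 0.45 in WT. Lef1, a transcription factor of Wnt signalling (chromosome 3, 131110471 to 131224356 on mm10), held 14.3, 12.1 and 14.5 in Mll2-KO day 0 and 132, 118 and 157 at day 4. WT fell from 221, 305 and 277 to 112, 95.2 and 97.8, so the genotypes were far apart at day 0 and near each other at day 4 (courses 3.22 and -1.38, difference 4.60 ± 0.2 SE, adjusted p = 1.64e-15). Sp5, a Wnt target, rose from 7.16, 6.45 and 2.29 to 70.6, 53 and 72 against 25.5 ± 6.35 and 30.6 ± 2.67 in WT. Both genes were called lower than WT at day 0 and higher at day 4. Kbtbd11, a BTB domain gene, rose from 5.48 ± 3.79 to 33.7 ± 3.36 against 50.4 ± 7.56 and 49.5 ± 6.17, and its day 4 libraries all lay below those of WT.

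Six3, Pramel7, Avil and Ffar3 had a start not called different from WT and a high end. Six3, a forebrain and eye homeobox gene (chromosome 17, 85613608 to 85629302 on mm10), rose from 5.37, 6.45 and 4.58 to 51.9, 59.1 and 50.2 in Mll2-KO and held 7.68 ± 2.06 and 10.7 ± 1.36 in WT. Pramel7, a gene known from preimplantation embryos, rose from 4.47, 10.5 and 4.58 to 89.2, 72.4 and 78.6 against 6.66 ± 2 and 8.34 ± 3.25. Avil, a villin family gene, rose from 24.6 ± 10.7 to 105 ± 12.3 against 35.3 ± 7.9 and 23.2 ± 3.2, and Ffar3, a fatty acid receptor, from 11.5 ± 8.86 to 89.6 ± 9.06 against 17.4 ± 1.36 and 24.2 ± 4.25. In all 4 genes the Mll2-KO day 4 libraries lay above every WT library of both days. At day 4 the double-KO held 47.5 ± 8.36 for Six3 and 25.2 ± 3.93 for Pramel7, and Mll1-KO 10.1 ± 4.69 and 1.3 ± 1.41.

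Genes silenced in Mll2-KO but not WT were low at day 4. Of the 84, 71 were at least 2-fold below WT at day 4 (as were 8.05% of all genes tested) and 15 at least 2-fold above WT at day 0 (2.65%). For 55 the day 4 level alone was apart (median courses -2.42 and -0.35). Il3ra and Csf2ra encode receptor subunits for the blood cell growth factors interleukin 3 and GM-CSF. Il3ra (chromosome 14, 14346275 to 14356011 on mm10) fell from 71.6, 102 and 111 in Mll2-KO day 0 to 7.84, 7.13 and 3.27 at day 4, while WT stood at 138, 132 and 97.8 and then 198, 192 and 216. Csf2ra (chromosome 19, 61223957 to 61228429 on mm10) fell from 117, 113 and 128 to 17.6, 18.3 and 19.6, while WT stood at 117, 128 and 112 and then 169, 202 and 203. At day 0 no difference from WT was called (adjusted p = 0.266 and 0.999), and at day 4 every Mll2-KO library lay below every WT library (-4.91 and -3.29 on the log2 scale). In the double-KO Il3ra went from 49.6 ± 9.38 to 4.31 ± 1.96 and Csf2ra from 70.3 ± 15.8 to 17.5 ± 6.41, and at Mll1-KO day 4 they stood at 183 ± 33.3 and 243 ± 16.7.

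A further 5 leading genes had a start not called different from WT. Ccdc125, a coiled-coil gene, fell from 58.6 ± 2.32 to 2.05 ± 0.97 against 77.6 ± 18.3 and 54.1 ± 12. Kcnt2, a potassium channel, fell from 69.3 ± 16.1 to 3.06 ± 1.95 against 41.3 ± 13.2 and 31.4 ± 5.58. Ric3, a chaperone of acetylcholine receptors, fell from 132, 146 and 150 to 13.7, 14.3 and 17.5 against 186 ± 11.5 and 119 ± 13.3. At day 4 the Mll2-KO libraries of each lay below those of WT. Mrc1, the mannose receptor, fell from 55.2 ± 8.77 to 11 ± 0.22 against 72.6 ± 17.4 and 89 ± 12.1, and Msrb2, a methionine sulfoxide reductase, from 53.8 ± 13.3 to 10.2 ± 4.93 against 78 ± 8.16 and 87.3 ± 12.6. G0s2, a lipase inhibitor, had a high start instead, with 82.3, 83.8 and 114 in Mll2-KO day 0 and 11.8, 11.2 and 4.37 at day 4, against 21.9 ± 8.66 and 18.4 ± 4.63 in WT. Tmem151a, a transmembrane protein gene, had the same form (98.7 ± 40.8 to 12.7 ± 2.32 against 25.3 ± 4.8 and 32.6 ± 3.67).

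**Figure D5:**
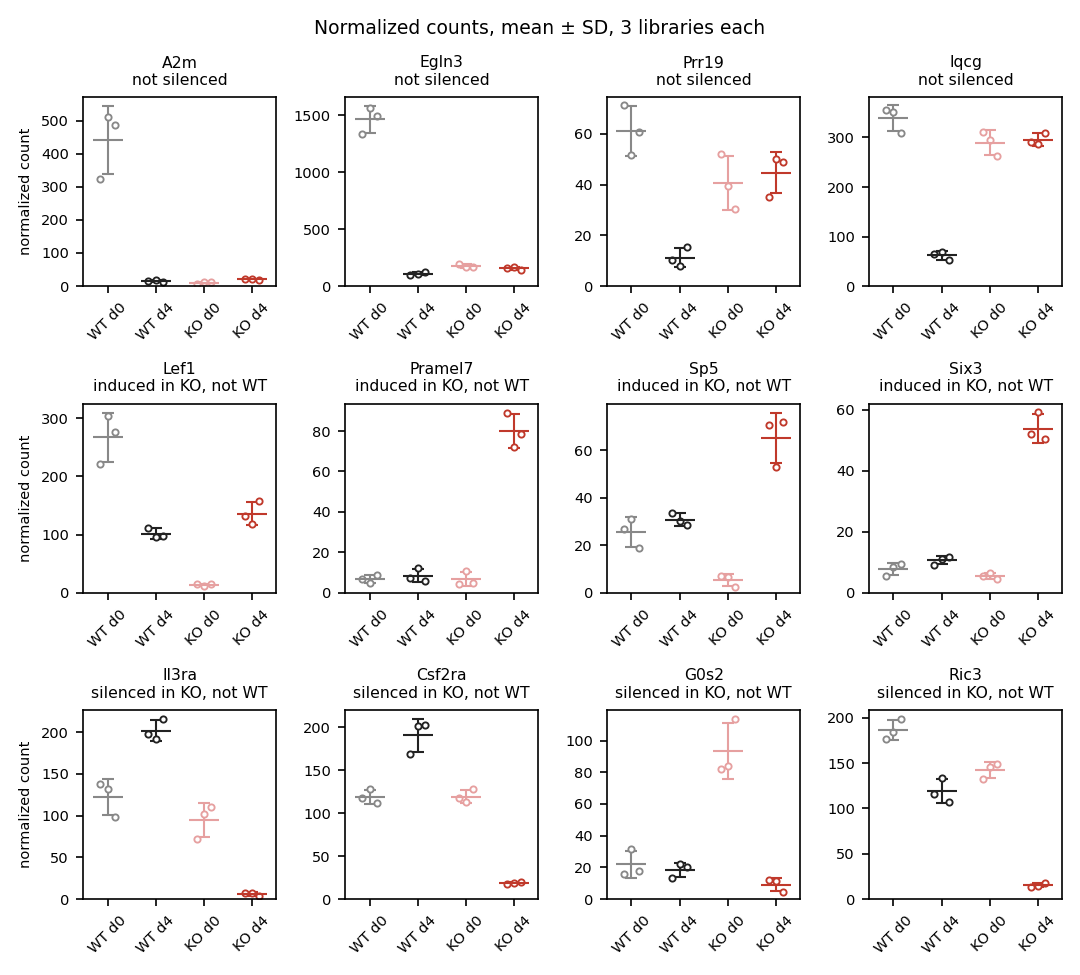
Normalized counts of 4 genes each that were not silenced in Mll2-KO, induced in Mll2-KO but not WT, and silenced in Mll2-KO but not WT, with a point per library and the mean ± SD (n = 3), vertical axis from 0. The Mll2-KO libraries of A2m and Lef1 lie below those of WT at day 0, and those of Iqcg lie above and those of Il3ra below WT at day 4. The rules chose these genes from the same libraries, so the gaps only describe the choice.

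The fold changes of the double-KO and Mll1-KO courses took no part in the rules. Their libraries did enter the gene filter and the shared estimate of spread. With only the 12 WT and Mll2-KO libraries in the fit the rules held 73, 51, 62 and 82 genes. Of the 90 genes not induced in Mll2-KO, 44 also stayed under 2-fold in the double-KO (48.9%, against 4.85% of the genes induced 4-fold in WT) and 5 in Mll1-KO (5.56%, against 1.96%). Of the 51 not silenced, 27 fell less than 2-fold in the double-KO (52.9%, against 10.7% of the genes silenced 4-fold in WT) and 9 in Mll1-KO (17.6%, against 3.71%). Of the 66 induced in Mll2-KO but not WT, 37 rose at least 4-fold in the double-KO (56.1%, against 14.1% of all genes) and 11 in Mll1-KO (16.7%, against 14.5%). Of the 84 silenced in Mll2-KO but not WT, 40 fell at least 4-fold in the double-KO (47.6%, against 7.73%) and 0 in Mll1-KO (0%, against 7.95%), counted by fold alone. With the Mll1-KO course in place of that of WT, the difference was called in the same direction for 79, 40, 42 and 77 genes of the 4 rules, where 29.1% of all genes were higher and 26.1% lower. These counts use again the Mll2-KO values that chose the genes and only describe them. Double-KO cells received 4-OHT as Mll2-KO cells did, and Mll1-KO and WT cells are labelled as untreated. The drug and the loss of Mll2 therefore cannot be told apart in these counts either. At day 0, 14 of the 51 and 21 of the 66 were also at least 2-fold lower in Mll1-KO than in WT, as were 5.15% of all genes, in a comparison that shares the WT day 0 libraries with the rules. Itga4 fell in the double-KO too (6.93 ± 1.69 to 0.51 ± 0.89), whereas Lama2 rose from 0.66 ± 1.14 to 8.98 ± 2.89 there and to 130 ± 8.36 in Mll1-KO.

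Genes of glycolysis and hypoxia shifted between the courses, with a low start in Mll2-KO. Of 25 measured, 21 had a higher course in Mll2-KO, as did 19.3% of all genes (median difference 1.17, against 0.02 over all genes). A lower one was seen for 0 in limma, at an unadjusted p below 0.05, and by edgeR and DESeq2 (17% of all genes in limma). In WT 24 fell (39.9% of all genes), while in Mll2-KO 14 fell and 8 rose (39.6% and 41.9%). At day 0, 22 were called lower in Mll2-KO than in WT and 2 higher, and at day 4, 17 were higher and 2 lower (23.8% and 22.6% of all genes at day 0, 20.3% and 16.2% at day 4). Bnip3, a mitophagy receptor that hypoxia induces, rose from 550, 600 and 579 to 1525, 1626 and 1580 in Mll2-KO and fell from 4001, 4488 and 5157 to 1316, 1174 and 1309 in WT. Ndufa4l2, a hypoxia-induced mitochondrial protein, fell from 41.1 ± 6.3 to 19.4 ± 5.37 in Mll2-KO and from 494 ± 121 to 12.5 ± 3.83 in WT. Pfkp, a glycolytic phosphofructokinase, fell from 1550 ± 80 to 142 ± 25.5 against 3200 ± 292 to 130 ± 26.3. In Mll1-KO 23 of the 25 were also called below WT at day 0 (19.2% of all genes were), against the same WT libraries, and against the Mll1-KO course 18 were higher in Mll2-KO and 2 lower.

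Cell cycle genes showed a smaller shift of the same kind: 20 of 26 had a higher course in Mll2-KO and 1 a lower one (median difference 0.47, where 19.3% and 17% of all genes did), and 20 were lower than in WT at day 0 (23.8% of all genes). The 1 lower course was lost without WT day 0 replicate 2, WT day 4 replicate 1, Mll2-KO day 0 replicate 1 or 3, or Mll2-KO day 4 replicate 1 or 2. Ccne1, a cyclin of the entry into S phase, fell from 2225, 2204 and 1783 to 788, 686 and 780 in Mll2-KO and from 3885, 3850 and 3603 to 647, 672 and 710 in WT. Ccne2, its relative, rose from 171 ± 33 to 322 ± 53.6 in Mll2-KO and fell from 549 ± 57.5 to 394 ± 10.7 in WT. Cdkn2b, a cell cycle inhibitor, rose by 4.28 in Mll2-KO and by 4.25 in WT.

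Integrated stress response genes went the other way. Of 18, 16 fell in Mll2-KO and 15 in WT (medians -1.93 and -1.74), where 39.6% and 39.9% of all genes fell. The course was lower in Mll2-KO for 11 and higher for 3 (17% and 19.3% of all genes). At day 0, 16 were called higher than WT and 1 lower (22.6% and 23.8% of all genes). At day 4, 12 were still called higher and 0 lower (20.3% and 16.2%), or 11 and 0 with column totals. The summed level at day 4 was 19870 to 20760 per Mll2-KO library against 15530 to 16100 in WT. Trib3, a pseudokinase induced by ATF4, fell from 3560, 3141 and 4441 to 176, 199 and 174 in Mll2-KO and from 1018, 1041 and 1109 to 137, 122 and 113 in WT. Ddit3, a stress transcription factor, fell from 1143, 1097 and 1681 to 340, 436 and 351 in Mll2-KO, while WT held 257 ± 16.1 and 280 ± 8.46. Replicate 3 was the highest Mll2-KO day 0 library in both genes, and their calls stayed without it. Atf3 rose from 234 ± 58.6 to 509 ± 20.2 against 68.8 ± 9.56 to 518 ± 8.26 in WT.

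Lysosome genes had a similar form, with 13 of 22 lower and 1 higher in the difference of courses (17% and 19.3% of all genes). The median courses were 0.74 in Mll2-KO and 1.19 in WT. At day 0, 17 genes were called higher than WT and 2 lower (22.6% and 23.8% of all genes). At day 4, 11 were still called higher and 4 lower (20.3% and 16.2%), or 8 and 5 with column totals. The summed level at day 4 was 118900 to 121300 per Mll2-KO library against 95330 to 98380 in WT, so the 2 genes below do not stand for the list. Hexa, a subunit of hexosaminidase, fell from 3483, 3458 and 4387 to 2214, 2293 and 2078 in Mll2-KO and rose from 1653, 1636 and 1632 to 2435, 2610 and 2551 in WT. Lipa, the lysosomal acid lipase, was below WT on both days, and rose from 52.3 ± 6.37 to 272 ± 33.5 in Mll2-KO and from 110 ± 11.4 to 1355 ± 87.4 in WT.

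Genes of the two-cell-like state, which a small share of stem cells enters, were low throughout in Mll2-KO. Of 14, 13 were lower than in WT at day 0 and 14 at day 4, and 10 had a lower course (23.8%, 16.2% and 17% of all genes). Their summed level was 392.7 to 692.5 per Mll2-KO day 0 library and 272.5 to 327.3 at day 4, against 2542 to 3086 and 3339 to 5105 in WT. Zscan4b went from 91.3, 103 and 48.8 to 33.3, 34.6 and 29.5 against 442, 372 and 365 and 470, 710 and 573, and Usp17le, a deubiquitinase gene, from 34.9, 16.1 and 14.5 to 2.94, 5.1 and 4.37 against 76.4 ± 5.73 and 90.5 ± 11.4. Both families have near-identical copies that can share reads, so single members are uncertain. At day 0, 5 of the 14 were also called lower in Mll1-KO than in WT (19.2% of all genes).

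Of 32 clustered protocadherins, neuronal adhesion proteins with shared exons or closely similar members, 20 rose and 5 fell in Mll2-KO against 26 and 3 in WT, with 10 lower courses and 1 higher (0 without WT day 0 replicate 2, WT day 4 replicate 2 or 3, Mll2-KO day 0 replicate 1, or any Mll2-KO day 4 replicate). At a minimum of 50 normalized counts 11 of the protocadherins rose. That count is over the members that reached the minimum and cannot be set against the 20 of 32. Over all genes 41.9% rose and 39.6% fell in Mll2-KO (43% and 39.9% in WT), and 17% had a lower and 19.3% a higher course. Pcdhga11 fell from 199, 171 and 157 to 36.3, 36.7 and 48 in Mll2-KO and held 141 ± 26.7 and 150 ± 20.6 in WT. Pcdhb22 rose from 1.29 ± 1.58 to 153 ± 18.9 against 4.33 ± 4.22 to 81 ± 19.2. Reads shared between members leave both uncertain.

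Markers of endoderm and mesoderm, cells that the day 4 culture could hold, were mostly induced in Mll2-KO. Over all genes tested 41.9% rose and 39.6% fell there, and 19.3% had a higher and 17% a lower course than in WT. All 18 parietal endoderm and basement membrane genes rose in both genotypes, with 10 higher and 3 lower courses in Mll2-KO and summed levels of 501900 to 515800 per day 4 library against 372200 to 384000 in WT. P4ha2, a collagen prolyl hydroxylase, rose from 750 ± 97.8 to 4146 ± 67.5 against 1174 ± 55.2 to 2212 ± 63.6. Krt19, an epithelial keratin, rose from 31.7 ± 13.6 to 3241 ± 68.2 against 158 ± 24.1 to 5059 ± 159. Both had the higher course in Mll2-KO, but Krt19 stayed below WT at day 4. Of 14 endoderm transcription factors 9 rose and 2 fell, with 6 higher courses and 1 lower (0 without WT day 0 replicate 1 or 2, WT day 4 replicate 3, any Mll2-KO day 0 replicate, or Mll2-KO day 4 replicate 1 or 3). Sox17 rose from 85, 133 and 125 to 766, 774 and 742 in Mll2-KO, against 186, 153 and 167 to 417, 394 and 450 in WT. Foxa1 and Foxa2, pioneer factors of endoderm, rose by 4.84 and 4.52 against 5.19 and 3.98.

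Of 25 mesoderm and cardiac genes 21 rose and 2 fell in each genotype (1 fell in Mll2-KO without its day 0 replicate 1 or 2, or its day 4 replicate 1 or 3). In Mll2-KO 7 courses were lower and 2 higher, where 17% and 19.3% of all genes were. The medians were 2.80 in Mll2-KO and 3.68 in WT. Osr1, a factor of intermediate and lateral mesoderm (chromosome 12, 9570116 to 9581500 on mm10), had no read at day 0 in either genotype and 29.4, 33.6 and 28.4 at day 4 in Mll2-KO against 279, 273 and 266 in WT, at least 12.4-fold and 119-fold over the floor of 3 reads. At day 4 it was -3.12 on the log2 scale from WT (adjusted p = 2.47e-09), and the double-KO held 20.1 ± 2.55 and Mll1-KO 316 ± 11.9. The difference of courses was called by limma and not by edgeR or DESeq2 (adjusted p = 1 and 0.116). Tbx18, a factor of the epicardium, rose from 10.7, 10.5 and 15.2 to 78.4, 90.7 and 70.9 against 8.96 ± 1.7 to 252 ± 14.5 (difference -2.05, adjusted p = 0.00201). Hand2 and Gata5, cardiac transcription factors, rose by 7.84 and 7.37, without a called difference from WT.

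Of 12 endothelial and blood markers 4 rose and 7 fell in Mll2-KO, with 4 higher courses (41.9%, 39.6% and 19.3% of all genes). Flt1, a receptor for vascular endothelial growth factor, rose from 32.2, 25 and 25.9 to 4223, 4042 and 4474 against 77.3, 84.3 and 109 to 2633, 2612 and 2522 (difference 2.37, adjusted p = 8.74e-10). Cdh5, the cadherin of endothelial junctions, rose from 24.2, 19.4 and 25.9 to 87.2, 99.9 and 70.9 in Mll2-KO and was 17.1 ± 1.41 and 10.2 ± 5.52 in WT, with no called change. Flt1 and Cdh5 were among the 4 that rose. Pecam1, which stem cells also express, fell from 2328 ± 239 to 143 ± 11.2. Cd34, another list member, fell from 20.9 ± 7.97 to 9.84 ± 3.37 against 91.6 ± 3.85 to 45.5 ± 7.95, below WT on both days. At day 4, 5 of the 12 markers were called higher than WT and 2 lower (20.3% and 16.2% of all genes). Among 21 visceral endoderm genes 14 rose and 6 fell, with 5 higher and 2 lower courses (4 lower at a pseudocount of 5). Over all genes 19.3% had a higher and 17% a lower course. Trf, transferrin, fell from 309, 345 and 279 to 30.4, 37.7 and 30.6 against 505, 470 and 486 to 184, 206 and 206 (difference -1.91, adjusted p = 2.15e-09). It had 1 of the 2 lower courses, while Ttr, given above, was among the 14 that rose. The summed level of the list at day 4 was 29280 to 31280 per Mll2-KO library against 26050 to 27830 in WT. The share of any of these cell types in the cultures was not tested.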

How the data were processed

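PolyA RNA of 24 mouse embryonic stem cell libraries (8 groups of 3) was sequenced after stranded library preparation, per the labels' protocols. The submitters' processing notes name the mm10 build, the aligner STAR 2.7.10a, the counter RSEM 1.3.1 and DESeq2 1.34.0, besides SAMtools 1.13, Trim Galore 3.4 and FastQC. The annotation and the strand setting of the counting are not given in the sources used here, so overlapping and antisense genes may share reads. The authors deposited 1 signal table of 19953 genes, in which each value is a read count divided by the size factor of its library. Whole reads were recovered for all values (tolerance 1e-06) and used for edgeR and DESeq2 as alternatives, while limma on the deposited values was the main test.

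Groups came from the genotype and day in the labels. The columns of WT day 0 carry an added letter that no label explains, and were matched to these samples as the only day 0 WT columns. The test was limma (3.58.1, R 4.3.3) with a mean-variance trend on log2(value + 1), fitted to all 24 libraries, for the 15114 genes that reached a value of 10 in 3 or more libraries, with Benjamini-Hochberg adjustment over all of them. edgeR 4.0.16, DESeq2 1.42.0, other pseudocounts, filters, scalings and thresholds, a replicate block and leaving out each library were alternatives. The fit was tested on simulated data of 15000 genes, of which 200 were given a changed difference of courses. It recovered 62.7% of genes changed 1.5-fold, 86.6% of those changed 2-fold and 100% of those changed 4-fold, with 4.05% of calls false. The data held 5491 called differences, so the share of false calls need not carry over to them. Recovery was not split by level, so these shares are no measure for genes with few reads. Figures were drawn with matplotlib 3.10.9 in Python 3.11.15.

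Genes were named by rule: Kmt2a, Kmt2b and Magohb; of the called Mll2-KO courses the 10 largest in each direction whose libraries do not overlap and whose higher group averages 50 or more; under each of the 4 course rules the 10 largest differences where a group averages 50 or more; from each list up to 2 rises, 2 falls and 2 differences in each direction; and any retinoic acid list member. Unnamed gene models were passed over, and a few genes that the rules name are not reported here. The members, rules and lists were chosen with earlier results of these data known. Kmt2a stood at 1381 ± 87 and 2362 ± 71.7 in Mll2-KO and at 1089 ± 37.8 and 2141 ± 106 in WT. Gene positions were matched by symbol for 19405 of 19953 genes (97.3%). A list of mitochondrially encoded genes had 0 members tested.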

Additional observations from a re-analysis of the deposited data

Results flagged for a closer look

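The course from day 0 to day 4 differed between Mll2-KO and WT, by the limma test of the difference itself, for 2922 genes with a higher and 2569 with a lower course in Mll2-KO. The balance turned when the libraries were scaled to column totals (2063 and 3436) and in edgeR (2664 and 2953). The genes below were chosen by that difference, so the values describe them, as log2 difference of courses (Mll2-KO minus WT).

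Among genes not induced in Mll2-KO the difference was -5.42 for Itga4, -3.91 for Lama2, -3.42 for Hmgcll1, -3.17 for Cldn34c1, -3.09 for Sspn, -3.01 for Zfp660, -2.93 for Gata2, -2.70 for Nox4, -2.62 for Grin2c and -2.52 for Nrn1. Among genes not silenced it was 6.50 for Stc1, 5.67 for A2m, 4.86 for Aoc3, 3.78 for Atp6v0a4, 3.56 for Egln3, 3.11 for Naip5, 3.04 for Ascl2, 2.88 for Otx2, 2.54 for Prr19 and 2.47 for Iqcg.

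Among genes induced in Mll2-KO but not WT it was 4.60 for Lef1, 3.25 for Pramel7, 3.21 for Sp5, 2.87 for Ffar3, 2.71 for Avil, 2.64 for Six3 and 2.61 for Kbtbd11, beside Stc1 and Aoc3. Among genes silenced in Mll2-KO but not WT it was -4.53 for Il3ra, -3.87 for Kcnt2, -3.83 for Ccdc125, -3.30 for Csf2ra, -3.17 for Tmem151a, -3.10 for G0s2, -2.53 for Mrc1, -2.52 for Msrb2 and -2.51 for Ric3, beside Itga4.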

How the results depend on the processing

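Of 299 counts of genes recomputed under the alternatives, 282 stayed within 1.5 times and 17 moved. Of the values of named genes 5908 kept their direction and their side of the threshold, 112 lost the call, 1 gained it and 0 reversed. The counts that moved were those of genes by rule, in the order not induced, not silenced, induced in Mll2-KO but not WT and silenced in Mll2-KO but not WT. They were 46, 24, 30 and 47 at a minimum of 50, 30, 17, 12 and 14 at a log2 of 3 against 1, and 196, 138, 134 and 220 at a log2 of 1 against 0.5. At a pseudocount of 5 the last 2 were 43 and 37, and quantile scaling gave 84 genes not silenced. Of the genes induced in Mll2-KO but not WT, 42 also differed from the Mll1-KO course, and with Mll1-KO as the reference course 8337 differences were called, both chosen after seeing the data. The cause was not tested where a scaling or pseudocount moved a count.

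Scaling to column totals turned the split of the differences to 2063 higher and 3436 lower (37.5% higher, against 53.2%). edgeR gave 2664 and 2953 (47.4%), with 74, 45, 65 and 91 genes by rule, and DESeq2 67, 47, 73 and 86. Quantile scaling moved the median course of all genes to -0.108 in Mll2-KO and -0.105 in WT, and column totals moved that of WT to 0.169. Leaving out each library in turn gave 11917 to 12289 called genes for the Mll2-KO course (6136 to 6336 higher, 5779 to 5973 lower), 12140 to 12569 for WT (6298 to 6528 and 5835 to 6041) and 4870 to 5403 differences (2598 to 2916 and 2272 to 2487). The rules then held 75 to 93, 48 to 59, 58 to 71 and 77 to 94 genes.

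With the replicate number as a block the Mll2-KO course had 12323 called genes (6344 higher, 5979 lower), the WT course 12527 (6496 and 6031) and the difference 5518 (2944 and 2574), with 89, 52, 67 and 84 genes by rule. The numbers did not pair the samples: over 18 pairs the deviations correlated with a median r of 0.00111 (-0.0433 to 0.0588). Among the genes named here the block ended the call of Nrip1 in the difference (adjusted p = 0.0569) and no other. Nrn1 also lost its difference at a pseudocount of 0.5 (0.0589) and in edgeR (0.0523). Depth limits genes with a few reads per library, such as Itga4 and Hoxc8, to wide ratios.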

Other observations

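The list counts of this section stand beside the shares of all genes. Of these 41.9% rose and 39.6% fell in Mll2-KO, and 19.3% had a higher and 17% a lower course. A count near these shares describes no feature of its list. Genes of DNA methylation followed pluripotency in Mll2-KO, with 12 of 17 lower and 5 higher at day 4, against 12 and 4 in WT, and 5 higher and 3 lower differences of courses. Dnmt3l, the cofactor of de novo methylation, fell from 4984, 4636 and 4271 to 512, 536 and 519 in Mll2-KO and from 7592, 7280 and 6673 to 311, 405 and 356 in WT (difference 1.19, adjusted p = 3.82e-08). Its Mll2-KO libraries lay below WT at day 0 and above it at day 4, as did those of the methyltransferase gene Dnmt3b (2418 ± 201 to 1212 ± 20.4 against 3242 ± 256 to 930 ± 23). Of 28 Polycomb genes, repressors of developmental genes, 10 rose and 16 fell in each genotype, with 7 higher courses (4 without WT day 0 replicate 1) and 4 lower. Pcgf5, a subunit of Polycomb repressive complex 1, rose from 193 ± 16.5 to 1455 ± 64.4 against 364 ± 16.3 to 1146 ± 56.3. Of 22 COMPASS family genes 6 rose and 11 fell against 7 and 13 in WT, with 5 higher and 4 lower courses (2 lower without WT day 4 replicate 1, and 3 higher and 7 lower when scaled to column totals). Setd1b, another methyltransferase of lysine 4, rose by 0.22 against 0.94 in WT. Of 9 exon junction complex genes, the proteins left at splice sites, 1 rose and 6 fell, with 3 higher and 2 lower courses.

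Of 39 Wnt pathway genes 29 rose and 6 fell in Mll2-KO, against 26 and 8 in WT, with 14 higher and 4 lower courses (2 lower without Mll2-KO day 0 replicate 1). Frzb, a secreted Wnt inhibitor, rose from 0, 0 and 2.29 to 354, 353 and 349 against 9.19, 3.04 and 6.99 to 366, 332 and 336 (difference 2.25, adjusted p = 0.0144). The genotypes did not overlap at day 0 and overlapped at day 4. Of 27 imprinted genes 21 rose and 3 fell, against 22 and 4, with 6 higher and 6 lower courses (3 lower without Mll2-KO day 4 replicate 3), where 19.3% and 17% of all genes were. Igf2, the fetal growth factor, rose from 149 ± 19.4 to 20360 ± 462, and Peg13, a noncoding RNA, held 55.5, 55.6 and 41.2 and then 51, 43.8 and 69.8 against 57.8 ± 4.07 rising to 158 ± 20. Of 28 germline and meiosis genes 4 rose and 21 fell, against 3 and 19, with 4 higher and 8 lower courses. Slc25a31, a carrier of the germ cell mitochondrion, fell from 19.6 ± 3.38 to 5.46 ± 3.24 against 45.6 ± 10.5 and 52.7 ± 5.04.

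Among markers of other cell types, 11 of 24 neural genes rose and 12 fell, with 9 higher and 2 lower courses, and Dcx, a microtubule protein of young neurons, had no read at day 0 and 169 ± 24.7 at day 4 (at least 68.4-fold). Nefl, a neurofilament chain, held 585, 543 and 512 and then 545, 519 and 558 against 977 ± 1.75 falling to 410 ± 14.1. Of 13 neural crest genes 9 rose and 3 fell, with 1 lower course. Of 11 trophectoderm genes 6 rose and 2 fell, with 4 higher and 4 lower courses, and Gata3 rose from 15.3 ± 2.77 to 507 ± 12.6 against 6.38 ± 1.55 to 607 ± 22.9. Of 18 fibroblast and matrix genes 15 rose and 2 fell, with 2 courses in each direction (1 lower without WT day 0 replicate 1 or Mll2-KO day 0 replicate 2, and 1 higher without WT day 4 replicate 3 or Mll2-KO day 0 replicate 3). Acta2, the smooth muscle actin, rose from 80.2 ± 24.9 to 16600 ± 2180.

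Of 25 cholesterol synthesis genes 6 rose and 15 fell, against 1 and 15 in WT. They had 6 higher and 2 lower courses, and 13 and 0 without Mll2-KO day 0 replicate 3. Without WT day 0 replicate 1, WT day 4 replicate 3 or Mll2-KO day 4 replicate 2 the lower ones were 1, and without Mll2-KO day 0 replicate 2 they were 4. Fdps, a synthase of the pathway, held 1771, 1637 and 3211 in the Mll2-KO day 0 libraries, with replicate 3 the highest, and 979, 841 and 1010 at day 4. Of 17 p53 targets 12 rose and 4 fell, against 12 and 5, with 3 higher and 2 lower courses (1 lower without WT day 0 replicate 2, WT day 4 replicate 1, Mll2-KO day 0 replicate 3 or Mll2-KO day 4 replicate 2).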
